A study of Mus musculus with 16 samples.

Results

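Retinoid binding and metabolism was described in flexor tendon by 9 of the 49568 gene symbols in the count table: Crabp1, Crabp2, Rbp4, Dhrs9, Aldh1a1, Aldh1a2, Aldh1a3, Cyp26b1 and Rarb. The members were chosen by symbol, with earlier results of these data known. Crabp2 was picked for its strain-by-injury pattern and Dhrs9 for its strain difference in uninjured tendon. The values that chose them are given as a description, without a test.

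The libraries were bulk RNA-seq of deep digital flexor tendon from male C57BL/6J (C57) or MRL/MpJ (MRL) mice, the second a strain studied for scar-reduced healing. Tendons were either uninjured or taken 7 days post injury (dpi), after a partial laceration across about 50% of the width of the tendon of hind paw digit 3. The mice were 9 to 11 weeks old, and each of the 4 groups held 4 libraries, each from 1 tendon whose sheath and surrounding tissue had been left on. No transgene is named for these mice. Surgery used ketamine and xylazine, with buprenorphine afterwards, so injury and these drugs cannot be told apart. Injured libraries carry only a library name in the labels (C57 had BI-181, BI-184, BI-183 and BI-185, and MRL had BI-270, BI-274, BI-272 and BI-275), and their values are given in ascending order of that name. Being whole tissue, the libraries cannot separate fewer cells of a type from less RNA per cell.

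Retinol circulates bound to RBP4, is oxidised to retinal by short-chain dehydrogenases such as DHRS9 and RDH10, and retinal is oxidised to retinoic acid by the ALDH1A enzymes. Retinoic acid is held in the cytoplasm by CRABP1 and CRABP2, bound in the nucleus by RAR and RXR receptors, and cleared by CYP26 hydroxylases. The pathway is known for patterning limbs and for regeneration and repair in skin and other connective tissues.

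RARB is itself a textbook retinoic acid target, and its promoter is shown because it was the only member window with a retinoic acid response element of the kinds searched. Each element was a direct repeat of the half-site NGNTCA, with A or G as the leading N and G or T as the inner N, on either strand, spaced by 1, 2 or 5 bases (DR1, DR2 and DR5). The RefSeq windows ran from 250 bases before to 50 after a start site on GRCm38.p6, and 7 of the 9 members had one, in 9 windows. Crabp2 and Aldh1a3 had no window. The Rarb window, chr14:16575427-16575726 on the minus strand, held 1 DR5 element, in capitals, beginning 53 bases before the start site. DR5 elements stood in 32 of 32851 windows (0.0974%), DR2 in 0.268% and DR1 in 0.222%. The Dhrs9 window, chr2:69380212-69380511 on the plus strand, is printed beside it because Dhrs9 carried the tested strain difference, and no element was found in it. Both sequences are of the reference assembly, and MRL sequence was not read.
Rarb: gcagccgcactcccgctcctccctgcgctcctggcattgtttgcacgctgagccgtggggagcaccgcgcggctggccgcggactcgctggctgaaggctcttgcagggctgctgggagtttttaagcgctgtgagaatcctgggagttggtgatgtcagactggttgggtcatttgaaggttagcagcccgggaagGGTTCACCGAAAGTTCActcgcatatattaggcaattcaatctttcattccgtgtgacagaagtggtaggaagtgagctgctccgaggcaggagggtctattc
Dhrs9: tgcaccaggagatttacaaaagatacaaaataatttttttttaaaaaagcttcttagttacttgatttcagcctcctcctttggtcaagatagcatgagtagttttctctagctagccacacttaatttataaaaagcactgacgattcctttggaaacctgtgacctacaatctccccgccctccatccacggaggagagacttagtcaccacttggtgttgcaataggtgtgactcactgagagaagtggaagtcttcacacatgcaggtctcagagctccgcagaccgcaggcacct

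Total counts per library ranged from 12552424 to 23741648, so that 3 counts, taken as the floor, were worth 0.126 to 0.241 CPM (counts scaled to library size). At 18524170 to 23741648 counts, every MRL injured library was deeper than all libraries of the other groups, of which the deepest held 17832908. Depth and that group cannot be told apart. Tendon markers were present in every library, with a summed level of 13260 to 51590 CPM over 8 genes. In 2 libraries the strain label went against the data. Genes counted at 20 or more in the 7 other libraries of one strain, and at 3 or fewer in the 7 others of the other strain, were used as a check chosen after seeing the data. The library labelled MRL uninjured replicate 4 held 9 of the 9 C57-restricted genes and 0 of the 27 MRL-restricted genes at 20 or more counts. The library labelled C57 uninjured replicate 4 held 26 of the 27 MRL-restricted genes and 1 of the 9 C57-restricted genes. The latter also held 85510 CPM of 12 epidermal markers, against 98.3 to 805.1 in the other C57 uninjured libraries. Both libraries kept their labels, no sample was reassigned, and results resting on them are given with and without them. BI-181 held 74710 CPM of 12 skeletal muscle markers, against 9.98 to 2157 in the other C57 injured libraries.

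Per length, the members spanned a wide range of levels. The median over the 16 libraries was 40.7 RPKM (CPM divided by exon length in kilobases) for Crabp2, 15.5 RPKM for Aldh1a2 and 14.4 RPKM for Rbp4. Dhrs9, Aldh1a3 and Cyp26b1 lay between 7.32 and 4.39 RPKM, and Aldh1a1, Rarb and Crabp1 between 2.06 and 0.756 RPKM. Exon lengths for this scale, and the GRCm38 positions of genes given here, came from GENCODE M21.

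**Figure D1:**
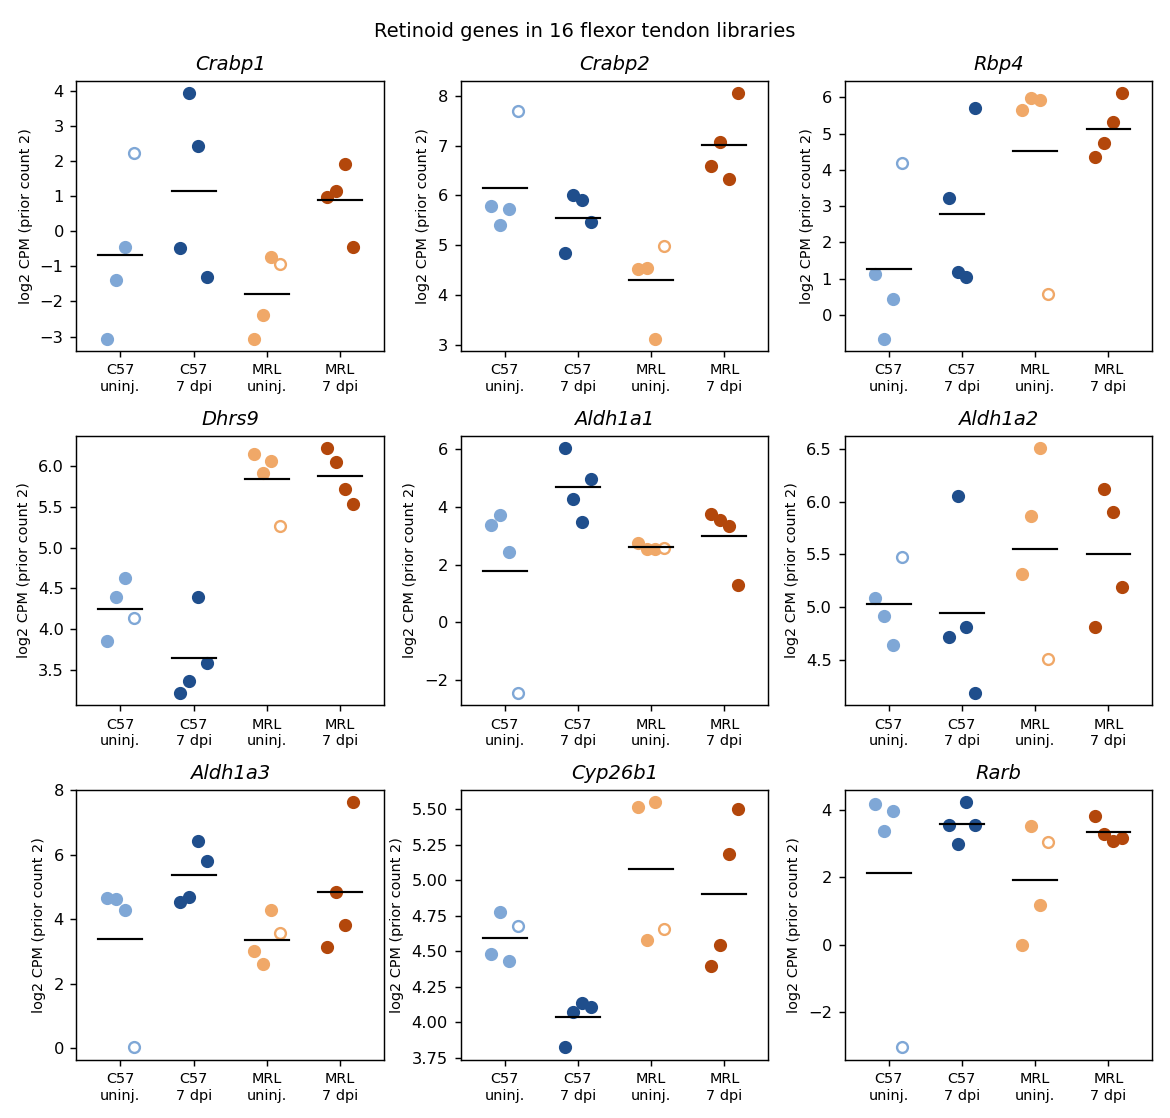
Level of each of the 9 retinoid genes in every library, as log2 CPM with a prior count of 2, by strain and injury (uninj., uninjured). Each point is a library, lines are group means, and open points are the libraries labelled uninjured replicate 4. Dhrs9 separates the strains as labelled in both states, whereas Crabp2 is lowest on average in MRL uninjured and highest in MRL injured tendon.

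Dhrs9 encodes a short-chain dehydrogenase that oxidises retinol and some steroids (ENSMUSG00000027068.6, GRCm38 chr2:69380445-69404533, plus strand). At 7 dpi its level was 9.18, 10.2, 20.9 and 11.9 CPM in C57 libraries BI-181 to BI-185. In MRL libraries BI-270 to BI-275 it was 74.5, 65.9, 52.4 and 46.4 CPM. Every MRL injured library was above every C57 injured library. The means were 13.1 ± 5.37 CPM (SD, n = 4) in C57 and 59.8 ± 12.8 CPM (SD, n = 4) in MRL, a 4.49-fold difference (log2 fold change 2.17, SE 0.29, edgeR quasi-likelihood test, Benjamini-Hochberg adjusted p = 0.00381). This contrast uses no library by which Dhrs9 was chosen, and neither doubted library enters it. Of the 8 members tested there, Dhrs9 was the 1 called, with an adjusted p under 0.05 and a log2 fold change beyond 1 in either direction, against 3.43% of all 14626 genes tested. Groups that did not overlap were found for 15.8% of all genes. Leaving out each library in turn gave log2 fold changes of 2.04 to 2.47, all called. Summed levels of 6 fibroblast and sheath markers also separated the strains, at 22140 to 44560 CPM in C57 and 49430 to 57870 CPM in MRL injured libraries, and 23630 to 48580 and 51860 to 57760 CPM in uninjured ones. Blood endothelial markers separated the injured strains in the other direction, and the part of either list in the Dhrs9 difference was not tested.

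The strains also stood apart in uninjured tendon, the difference for which Dhrs9 was chosen. Its level was 14.3, 21.0, 24.5 and 17.5 CPM in C57 uninjured replicates 1 to 4, and 70.9, 59.9, 66.7 and 38.2 CPM in MRL uninjured replicates 1 to 4. As labelled, the groups did not overlap, as in 5.04% of all genes. The library labelled MRL uninjured replicate 4, with the C57-restricted genes, was the lowest of its group. That labelled C57 uninjured replicate 4, with 26 of the 27 MRL-restricted genes, lay within the range of C57 replicates 1 to 3. Without both, the ranges stayed apart, at 14.3 to 24.5 CPM in C57 and 59.9 to 70.9 CPM in MRL, as for 24.8% of all genes. The difference was 2.99-fold, and 3.28-fold without both libraries labelled replicate 4. The injury difference of Dhrs9 was small beside this, at a log2 fold change of -0.61 in C57 and 0.03 in MRL. In both strains the injured and uninjured ranges overlapped. The order of the group means was C57 injured, C57 uninjured, MRL uninjured and MRL injured, of which the neighbours within a strain overlapped.

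Crabp2 encodes the protein that carries retinoic acid to its nuclear receptors (ENSMUSG00000004885.5, GRCm38 chr3:87948666-87953376, plus strand). It was 22.9, 23.3, 8.59 and 31.3 CPM in MRL uninjured replicates 1 to 4. In MRL injured libraries BI-270 to BI-275 it was 95.9, 134.8, 79.7 and 264.7 CPM. All 4 injured levels exceeded all 4 uninjured levels, and groups did not overlap, in either direction, for 22.9% of all genes. BI-275 was far the highest. The means were 21.5 ± 9.43 and 143.8 ± 83.9 CPM (SD, n = 4 each), a 6.74-fold difference, or 7.92-fold without the library labelled MRL uninjured replicate 4. Without BI-275 the log2 fold change was 2.27, against 2.75 with all libraries.

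In C57 the picture differed for Crabp2. Levels were 54.8, 42.3, 52.8 and 206.9 CPM in uninjured replicates 1 to 4, and 28.6, 63.8, 59.8 and 43.8 CPM in BI-181 to BI-185. The groups overlapped, and the one high value was in the library labelled C57 uninjured replicate 4, which also had the highest epidermal markers. The log2 fold change of injury was -0.94 with that library and -0.07 without it. Its C57 uninjured mean was 89.2 ± 78.7 CPM (SD, n = 4) and 50.0 ± 6.70 CPM (SD, n = 3) without it. The part of epidermal RNA in this value was not tested.

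Between strains as labelled, Crabp2 was lower in every MRL uninjured than in every C57 uninjured library. It was higher in every MRL injured than in every C57 injured library. Groups did not overlap for 5.04% and 15.8% of all genes there. The 2 doubted libraries were each the highest of their labelled group, at 206.9 CPM (C57) and 31.3 CPM (MRL). Without both, uninjured ranges were 42.3 to 54.8 CPM in C57 and 8.59 to 23.3 CPM in MRL, and groups stayed apart for 24.8% of all genes. The MRL minus C57 log2 differences were -2.11 uninjured, -1.47 without both doubted libraries, and 1.52 at 7 dpi. The strain-by-injury term was 3.62 on the log2 scale, and 3.00 without them. These figures restate the pattern for which Crabp2 was chosen. Of the 3 genes most like it over the 16 libraries, Atox1, Cib1 and 2810025M15Rik, the first had a Pearson r of 0.94 among 14051 genes, a description over libraries that share the 4 groups.

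Crabp1 encodes the related cytoplasmic binding protein that is linked to retinoic acid turnover (ENSMUSG00000032291.8, chr9:54764748-54773110, plus strand). It was the scarcest member, at 0, 0.0721, 0.477 and 0.402 CPM in MRL uninjured replicates 1 to 4, of which 2 libraries were at or under the floor. It was 1.85, 2.09, 3.61 and 0.612 CPM in BI-270 to BI-275. The MRL groups did not overlap, as in 22.9% of all genes. Uninjured MRL libraries held at most 8 counts of it, so Crabp1 passed the filter on low counts only through the injured libraries, and its MRL difference is a description without a test. In C57 it was too scarce for the filter, at 0 to 4.53 CPM uninjured and 0.284 to 15.1 CPM injured, with 4.53 CPM in the library labelled C57 uninjured replicate 4.

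**Figure D2:**
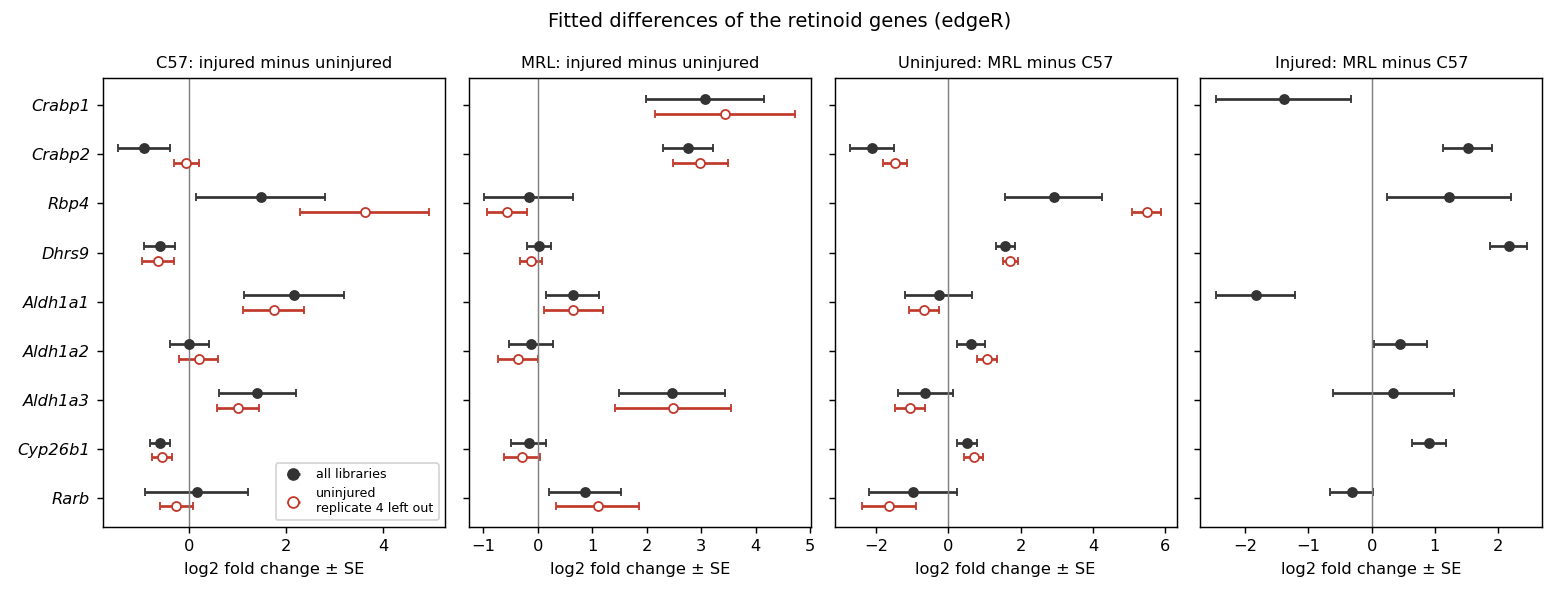
Fitted log2 fold changes of the retinoid genes with their SE in 4 comparisons, with all libraries (filled) and without the libraries labelled uninjured replicate 4 (open); Crabp1 was too scarce to be fitted in the C57 injury and uninjured strain panels and in the MRL injury panel passed the filter only through the injured libraries, and the injured strain panel contains neither library. Dhrs9 lies at 2.17 between injured strains, and Rbp4 moves from 2.91 to 5.49 between uninjured strains.

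Rbp4 encodes the plasma carrier of retinol, made chiefly in liver and fat (ENSMUSG00000024990.13, chr19:38116629-38125281, minus strand). Its level in uninjured tendon turned on the 2 libraries whose labels went against the data. C57 uninjured replicates 1 to 4 held 2.08, 0.518, 1.23 and 18.1 CPM, and MRL uninjured replicates 1 to 4 held 49.7, 63.2, 60.9 and 1.37 CPM. The library labelled MRL replicate 4 lay within the range of C57 replicates 1 to 3, and the library labelled C57 replicate 4 lay between the other libraries of both groups. With all libraries the groups overlapped and the difference was not called (log2 fold change 2.91, SE 1.34, edgeR adjusted p = 0.634). Without both, the means were 1.28 ± 0.783 and 57.9 ± 7.23 CPM (SD, n = 3 each), and Rbp4 was called (log2 fold change 5.49, SE 0.40, edgeR adjusted p = 3.73e-05). That fit called 1 of 6 members tested and 3.48% of 14274 genes, and which libraries to doubt was decided with the data in view.

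Injured C57 libraries held 9.30, 2.16, 1.95 and 51.6 CPM of Rbp4 in BI-181 to BI-185, and injured MRL libraries 20.5, 26.5, 39.7 and 69.0 CPM in BI-270 to BI-275. BI-185 alone reached the MRL range. Summed adipocyte markers over 8 genes were 216.6 to 257.4 CPM in BI-181, BI-183 and BI-185, 35.2 CPM in BI-184 and 13.9 to 186.7 CPM in the MRL injured libraries, and their part in the values was not tested. The injured strain difference was not called (log2 fold change 1.22, SE 0.98, edgeR adjusted p = 0.517), and without BI-185 it was 3.05 and still not called. Neither injury comparison was called for Rbp4, at 1.48 (SE 1.33) in C57 and -0.16 (SE 0.82) in MRL. Leaving out the doubted C57 uninjured library gave 3.62 (SE 1.34, edgeR adjusted p = 0.174) in C57, and leaving out BI-185 gave -0.33.

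The 3 retinal dehydrogenases, which make retinoic acid, varied in different ways. Aldh1a1 (ENSMUSG00000053279.8, chr19:20492715-20643465, plus strand) was 10.3, 12.9, 5.32 and 0.0638 CPM in C57 uninjured replicates 1 to 4 and 65.9, 19.2, 10.96 and 31.4 CPM in BI-181 to BI-185. Its highest level was in BI-181, the library with the most skeletal muscle RNA, and its lowest, 1 count, in the library labelled C57 uninjured replicate 4. The C57 injury difference was not called (log2 fold change 2.16, SE 1.03, edgeR adjusted p = 0.361), nor without that library (1.74, SE 0.63, adjusted p = 0.155). Without BI-181 it was 1.52 (adjusted p = 0.615). MRL libraries were narrower, at 5.67 to 6.63 CPM uninjured and 2.34 to 13.3 CPM injured.

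At 7 dpi Aldh1a1 averaged 31.9 ± 24.2 CPM in C57 and 9.31 ± 4.83 CPM in MRL (SD, n = 4 each). The groups overlapped and the difference was not called by edgeR (log2 fold change -1.83, SE 0.63, adjusted p = 0.135), whereas DESeq2 gave an adjusted p of 0.0252. Without BI-181 it was -1.16 (edgeR adjusted p = 0.309). Blood endothelial markers, summed over 6 genes, were 96.7 to 141.5 CPM in C57 injured and 0.924 to 24.4 CPM in MRL injured libraries, and their part was not tested. Herc3 and Kank3 followed Aldh1a1 most closely, with Pearson r of 0.94 over 16 libraries for each.

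Aldh1a3 (ENSMUSG00000015134.15, chr7:66390890-66427517, minus strand) was 25.0, 24.4, 19.3 and 0.894 CPM in C57 uninjured replicates 1 to 4 and 23.2, 25.8, 85.1 and 55.9 CPM in C57 injured libraries. In MRL it was 7.89, 5.91, 19.5 and 11.7 CPM uninjured and 8.70, 28.2, 14.0 and 196.6 CPM injured. The MRL injured mean of 61.9 ± 90.2 CPM (SD, n = 4) thus rested on BI-275. The log2 fold change of injury was 2.47 in MRL (SE 0.97, edgeR adjusted p = 0.136) and 0.59 without BI-275. In C57 it was 1.40 (SE 0.80, adjusted p = 0.436), and 1.01 without the library labelled replicate 4.

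Aldh1a2, the main retinal dehydrogenase of the embryo, had overlapping groups with all libraries (ENSMUSG00000013584.5, chr9:71215789-71296243, plus strand). Its group means were 33.3 ± 8.32 and 34.6 ± 21.6 CPM in C57 and 52.9 ± 29.4 and 48.5 ± 19.5 CPM in MRL, uninjured and injured (SD, n = 4 each). All 4 ranges overlapped, between 18.0 and 91.3 CPM. The injury differences were 0.00 (SE 0.40) in C57 and -0.12 (SE 0.41) in MRL on the log2 scale. Between uninjured strains the log2 difference was 0.63 (SE 0.40, edgeR adjusted p = 0.71). Without both libraries labelled replicate 4 the ranges separated, at 24.8 to 33.8 CPM in C57 and 39.6 to 91.3 CPM in MRL, as those of 24.8% of all genes did with 3 libraries a group, and the difference was 1.08 (SE 0.28, adjusted p = 0.0528), which was not called.

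Cyp26b1 encodes a hydroxylase that clears retinoic acid (ENSMUSG00000063415.12, chr6:84571414-84593908, minus strand). It was 22.2, 27.3, 21.4 and 25.5 CPM in C57 uninjured replicates 1 to 4 and 14.0, 16.7, 17.5 and 17.1 CPM in BI-181 to BI-185. All injured levels were below all uninjured levels, and groups did not overlap, in either direction, for 11.6% of all genes. The difference did not pass the correction (log2 fold change -0.61, SE 0.20, edgeR adjusted p = 0.209), nor without the library labelled replicate 4 (-0.57, adjusted p = 0.142). In MRL, levels were 45.7, 23.8, 46.7 and 25.2 CPM uninjured and 20.9, 23.2, 36.4 and 45.2 CPM injured, with no separation.

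Injured MRL libraries all exceeded injured C57 libraries in Cyp26b1, and groups did not overlap, in either direction, for 15.8% of all genes. The means were 31.4 ± 11.4 and 16.3 ± 1.56 CPM (SD, n = 4 each). This difference was also not called (log2 fold change 0.91, SE 0.27, edgeR adjusted p = 0.0945). Over the 16 libraries Cyp26b1 varied with Dhrs9 (Pearson r 0.69, and 0.71 over 14 libraries), a description over points that share strain and depth. Among the members it also varied against Aldh1a1 (r -0.46, and -0.75 over 14) and Rarb (r -0.41, and -0.69 over 14). Timp3, an inhibitor of matrix metalloproteinases, was the gene most like Cyp26b1 (r 0.89).

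Rarb encodes the beta retinoic acid receptor (ENSMUSG00000017491.9, chr14:16430839-16819156, minus strand). It was 18.0, 10.2, 15.4 and 0 CPM in C57 uninjured replicates 1 to 4 and 7.76 to 18.5 CPM in the injured C57 libraries. In MRL it was 0.862, 11.3, 2.15 and 8.12 CPM uninjured and 8.24 to 13.9 CPM injured. The ranges of neighbouring groups overlapped, and no difference was called, with log2 fold changes of 0.15 (SE 1.06) in C57 and 0.87 (SE 0.66) in MRL. The C57 value turned to -0.27 (SE 0.35) without the library labelled C57 uninjured replicate 4, where Rarb was at 0. Exons of Rarb share 1793 bases with Top2b on the opposite strand, and without strand the reads of the pair cannot be told apart.

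None of the tested members was called in either injury comparison. In C57, 0 of 6 tested members were called against 1.07% of 14424 genes, and 1 had an unadjusted p under 0.05 against 15.3% of genes. In MRL, with Crabp1 left out because only its injured libraries passed the filter, 0 of 6 were called against 7.41% of 14274 genes. There 1, Aldh1a3, had an unadjusted p under 0.05 against 28.3%. Groups that did not overlap were found for 22.9% of genes in MRL and for 5.04% between uninjured strains. Median log2 fold changes of the tested members were 0.78 in C57 and 0.26 in MRL, against -0.05 and -0.03 over all genes. Without the library labelled replicate 4 of each strain, the shares called were 5.01% in C57 and 6.11% in MRL, and again 0 members. In C57 the unadjusted edgeR p was then under 0.05 for Rbp4, Aldh1a1, Aldh1a3 and Cyp26b1, but not for Aldh1a2 or Rarb. In MRL, again with Crabp1 left out, it was under 0.05 for Aldh1a3 only. The share of all genes under 0.05 was not computed for these fits.

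The strain-by-injury interaction was called for 0 of 6 members (again without Crabp1) and 0% of 15947 genes by edgeR (smallest adjusted p = 0.293). At an unadjusted p under 0.05 it held 0 of 6 members and 12.2% of genes, and DESeq2 called 141 genes and 0 of the 6. Without both doubted libraries it was again 0 members and 0% of 16391 genes. In uninjured tendon edgeR called 0 of 6 members and 0% of 14055 genes, with an unadjusted p under 0.05 for 0 members and 7.87% of genes, and DESeq2 called 64 genes and 0 of the 6. Without both doubted libraries edgeR called 1 of 6 members (Rbp4) and 3.48% of 14274 genes. Unadjusted edgeR p was then 7.84e-08 for Rbp4, 0.00303 for Aldh1a2, 0.0249 for Cyp26b1 and 0.0278 for Aldh1a3. Aldh1a1 and Rarb stayed above 0.05, and the share of all genes under 0.05 was not computed there.

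The wider pathway was followed in 48 other listed genes, of which 32 to 35 passed the filter in each comparison. With all libraries 1 was called in any comparison, 1 of 33 tested in MRL after injury against 7.41% of all genes. Fabp5, a fatty acid binding protein that also carries retinoic acid to other receptors, rose in MRL after injury. It was 10.7, 4.40, 3.64 and 2.25 CPM in MRL uninjured replicates 1 to 4 and 17.4, 11.9, 17.7 and 37.2 CPM in BI-270 to BI-275. The groups did not overlap, as in 22.9% of all genes (log2 fold change 2.01, SE 0.52, edgeR adjusted p = 0.0348). Without the library labelled MRL replicate 4 it was 1.76 and no longer called (adjusted p = 0.0703). Fabp5 was at 2684 CPM in the library labelled C57 uninjured replicate 4, where the retinol binding genes Rbp2 and Rbp7 stood at 447.5 and 766.2 CPM and the retinol dehydrogenase Rdh12 at 223.1 CPM, beside its high epidermal markers.

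**Figure D3:**
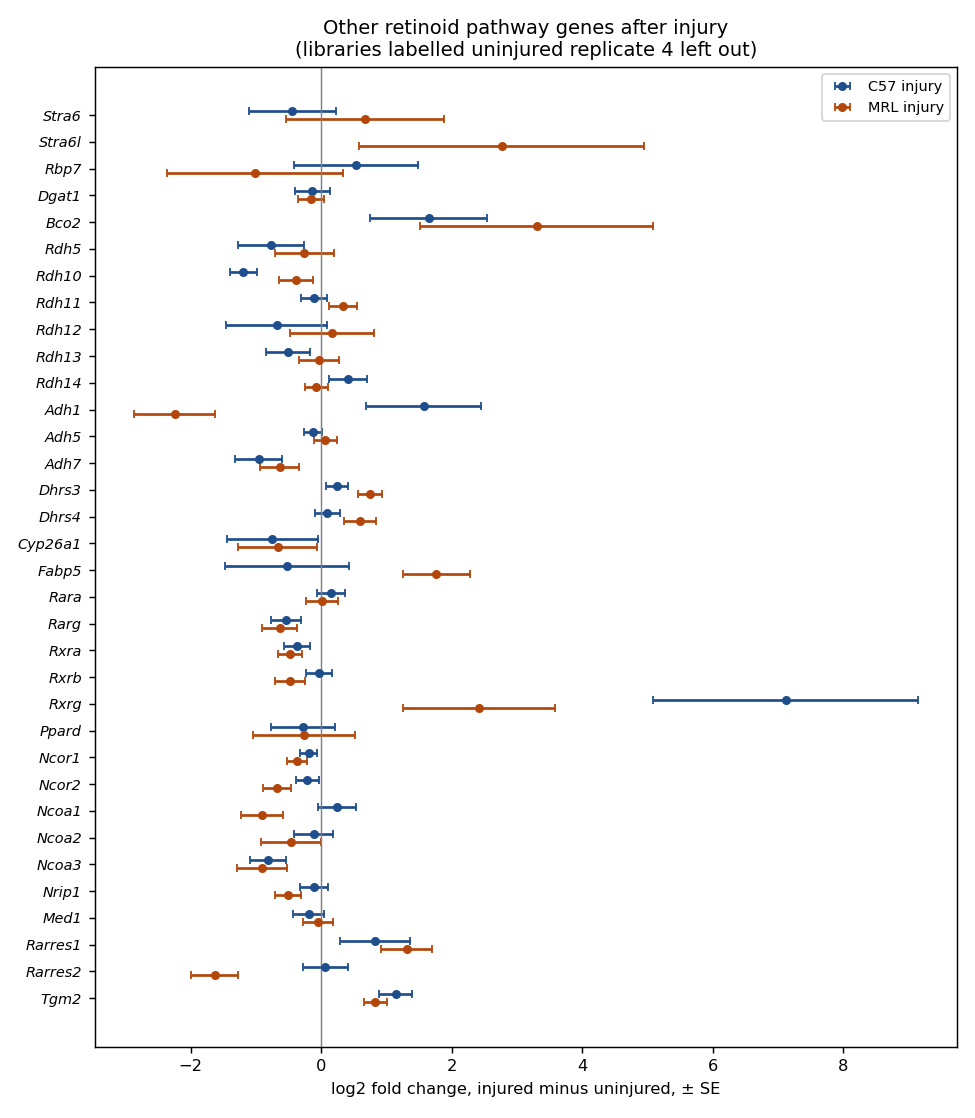
Log2 fold changes after injury, with SE, of other retinoid pathway genes that passed the filter, in C57 and MRL, without the libraries labelled uninjured replicate 4. Rdh10 and Tgm2 were called in C57, and Rarres2 in MRL.

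Without the library labelled C57 uninjured replicate 4, 1 of 34 pathway genes rose and 1 fell in C57, where 5.01% of all genes were called. Rdh10, which oxidises retinol to retinal, fell: it was 42.9 to 47.5 CPM in uninjured replicates 1 to 3 and 13.44 to 23.73 CPM in injured libraries (log2 fold change -1.19, SE 0.21, edgeR adjusted p = 0.0146). Tgm2, a transglutaminase responsive to retinoic acid, rose, with 26.8 to 48.4 CPM before and 59.4 to 95.8 CPM after injury (1.14, SE 0.25, adjusted p = 0.0297). That library held 13.5 CPM of Rdh10 and 3.51 CPM of Tgm2. With it included neither was called, at -0.92 (SE 0.38, edgeR adjusted p = 0.295) for Rdh10 and 1.51 (SE 0.59, adjusted p = 0.277) for Tgm2. The Tgm2 groups still did not overlap, as in 11.6% of all genes. In MRL the Tgm2 groups also did not overlap, as in 22.9% of all genes (0.94, SE 0.19, edgeR adjusted p = 0.0141), but the fold change was under the limit. Summed levels of 12 macrophage markers also differed with injury, at 789.6 to 1775 CPM uninjured and 4744 to 8635 CPM injured in C57, and 1002 to 1638 CPM uninjured and 3677 to 6644 CPM injured in MRL, without overlap. Summed levels of 6 proliferation markers were 6.35 to 180.3 and 48.5 to 283.1 CPM in C57, and 2.65 to 9.52 and 164.8 to 544.5 CPM in MRL, uninjured and injured. Summed levels of 6 blood endothelial markers were 16.6 to 73.1 and 96.7 to 141.5 CPM in C57, uninjured and injured. In MRL they were 1.86 to 65.7 and 0.924 to 24.4 CPM, with overlap. The part of any of these lists in the values of Tgm2, Rdh10, Fabp5 and the other genes compared after injury was not tested.

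Rarres2, the gene of the chemoattractant chemerin, was not called in MRL after injury with all libraries (log2 fold change -1.32, SE 0.50, edgeR adjusted p = 0.117). Without the library labelled MRL uninjured replicate 4 it was called lower (-1.63, SE 0.36, adjusted p = 0.0284), 1 of 35 pathway genes against 6.11% of all genes. Between uninjured strains it was 1.58 (SE 0.52, adjusted p = 0.621) with all libraries and 2.33 (SE 0.15, adjusted p = 1.94e-05) without both doubted libraries. The alcohol dehydrogenase Adh1 turned direction there, from -1.49 (SE 1.47, edgeR adjusted p = 0.818) with all libraries to 2.00 (SE 0.40, adjusted p = 0.0169) without both. It was 200.2 CPM in the library labelled C57 uninjured replicate 4 and 0.723 CPM in that labelled MRL replicate 4, against 3.16 to 10.8 and 25.2 to 31.7 CPM in the others of each group. Without both, these 2 of 32 pathway genes were called, against 3.48% of all genes. Rarres2 and Adh1 were named after their values were seen. In the labelled replicate 4 libraries Rarres2 was 43.0 CPM (C57) and 18.2 CPM (MRL), against 18.13 to 20.01 and 87.8 to 110.4 CPM in the other libraries of each group.

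Among the other receptors and enzymes none was called with all libraries. Rara, Rarg and Rxra, nuclear receptors, averaged 25.3, 130.9 and 73.3 CPM in MRL uninjured and 26.0, 88.0 and 54.3 CPM in MRL injured tendon. Dhrs3, which returns retinal to retinol, averaged 81.7 ± 23.1 and 117.5 ± 19.6 CPM in MRL (SD, n = 4 each, log2 fold change 0.53, edgeR adjusted p = 0.132). Without the library labelled MRL uninjured replicate 4, the highest uninjured value at 114.6 CPM, it was 0.75 (adjusted p = 0.0395), still under the fold limit. Cyp26a1, a second retinoic acid hydroxylase, averaged 2.76 CPM in C57 injured and 8.38 CPM in MRL injured tendon (1.56, SE 0.62, adjusted p = 0.183). Stra6, which takes up retinol, and the receptors showed no called difference between injured strains. Ttr, the plasma partner of RBP4, and Lrat, which esterifies retinol, were too scarce to be tested.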

How the data were processed

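Members and gene lists were chosen with earlier results of these data known. RNA-seq read counts per gene symbol were deposited by the authors as whole numbers for 16 libraries, without normalization. The submitters' processing notes name Trimmomatic 0.36, STAR 2.5.2b, featureCounts of Subread 1.5.0p3, DESeq2 1.14.1 and build GRCm38.p5, and the strand setting of the counting is not given in the sources used here. The labels describe a TruSeq library kit, whereas the methods describe another kit with pre-amplification, so counting error may understate technical error. The methods give 4 animals per group.

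Counts were tested with edgeR 4.0.16 (TMM, filterByExpr, robust quasi-likelihood test, Benjamini-Hochberg over all genes tested) in R 4.3.3, on the 8 libraries of each comparison and on all 16 for the interaction. A call needed an adjusted p under 0.05 and, outside the interaction, an absolute log2 fold change over 1. DESeq2 1.42.0, other scalings and filters, and left-out libraries were alternatives. Fits were tested on simulated data. Named genes were the 9 members, pathway genes called in any comparison and 11 fixed pathway genes, 1 of which is not reported here. Crabp2, and Dhrs9 wherever uninjured libraries enter, were described without a test.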

Additional observations from a re-analysis of the deposited data

Results flagged for a closer look

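Of 36 groups of 4 libraries examined, 5 held a library far from the other 3. The rule flags about 1 in 20 groups of independent, normally distributed values. CPM need not be so distributed, and several flags share 1 library, so the count is not read against chance. In C57 uninjured tendon the library labelled replicate 4 was the highest for Crabp1 (4.53 CPM), Crabp2 (206.9 CPM) and Rbp4 (18.1 CPM), and it is also the library with 85510 CPM of epidermal markers and 26 of 27 MRL-restricted genes. In C57 injured tendon, BI-185 held 51.6 CPM of Rbp4. In MRL injured tendon, BI-275 held 196.6 CPM of Aldh1a3. Its summed tendon markers were 26290 CPM, against 39740 to 51590 CPM in the other MRL injured libraries. Its proliferation markers were 544.5 CPM, against 164.8 to 378.0 CPM. The part of these features in the values was not tested.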

How the results depend on the processing

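Of the log2 fold changes recomputed under alternatives, 537 of tested members kept their direction and their side of the criteria for a call, 21 turned direction and 3 (Rbp4, Aldh1a1 and Crabp1) newly met the criteria. These counts include Crabp1, whose MRL injury and interaction values are not read as tests. For Crabp2 and Dhrs9, where described without a test, direction and size were followed. There 148 values kept their direction and moved by less than the largest SD of log2 CPM within a group compared, and 4 turned. DESeq2 called 756 genes in C57 (edgeR 155), 141 in the interaction, 64 between uninjured and 1157 between injured strains, and 1 member in MRL (Crabp1, which passed the filter only through the injured libraries and is not read as a test) and 2 between injured strains (Dhrs9 and Aldh1a1); the cause was not tested. A fit of all 16 libraries called 367 genes in C57. No filter on low counts gave 1 gene between uninjured strains, and leaving out both libraries labelled uninjured replicate 4 gave 497 genes and 1 member (Rbp4). Leaving out 1 library gave 10 to 750 genes in C57 (750 without the library labelled uninjured replicate 4), 689 to 1260 in MRL, 0 to 3 between uninjured and 231 to 481 between injured strains. It turned the log2 fold change of members whose main values were small or rested on 1 library: in C57 Aldh1a2 (-0.49 to 0.24), Rarb (-0.27 to 0.50) and Rbp4 (-0.33 to 3.62); in MRL Rbp4 (-0.60 to 0.068), Dhrs9 (-0.12 to 0.13) and Aldh1a2 (-0.36 to 0.26); in the interaction Aldh1a2 (-0.43 to 0.34), Rbp4 (-3.84 to 0.13), Aldh1a3 (-0.86 to 1.44) and Crabp1 (-1.11 to 2.495); between uninjured strains Aldh1a1 (-0.68 to 0.19); and between injured strains Aldh1a3 (-1.45 to 0.78). Upper-quartile scaling gave -0.001 for Dhrs9 in MRL, and leaving out both libraries gave -0.77 for Crabp1 in the interaction. With the replicate block in the uninjured comparison Aldh1a1 was 0.37, 0 genes and 0 members were called; same-numbered libraries did not deviate together (correlations -0.26, 0.02, -0.11 and -0.23), so the numbers do not pair the samples. None of the alternatives ended the Dhrs9 call between injured strains. Levels under 0.241 CPM, the floor of the shallowest library, were not resolved, which bears on Crabp1.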
